A study of Bos taurus with 10 samples.

Results

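The SLC25 family of mitochondrial carriers was followed across 10 Affymetrix bovine arrays of udder tissue. Members were all probe sets whose only annotated gene symbol began with SLC25A, together with those of UCP1, UCP2, UCP3, MTCH1 and MTCH2. This rule gave 45 probe sets of 24016 on the array, for 32 genes of the 9155 named ones. An intensity filter that dropped the lowest 40% of probe sets by mean over the 10 arrays left 32 of the 45, for 25 genes, and the other 13 were too dim to enter the test.

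Carriers of this family are small proteins that sit mostly in the inner mitochondrial membrane, which is otherwise closed to charged metabolites. Each binds one or a few substrates and flips them across, often in exchange for another, so that ATP, phosphate, citrate, amino acids, cofactors and iron move between cytosol and matrix. In the lactating udder the epithelium depends on mitochondria for energy and on cytosolic precursors and reducing power for milk fat and protein synthesis. Roles given here are those known of the human proteins.

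The animals were German Holstein Frisian cows in their first lactation, in midlactation, with synchronized oestrus and milked out with the help of oxytocin. The neighboring group held glands without bacteria from 5 cows that had received live Escherichia coli strain 1303 in one gland and saline in another, taken 24 h after inoculation. The control group held glands of 5 other cows handled alike but given no inoculation. The question was whether genes change in healthy glands beside an infected one. Neighboring arrays 1, 2, 3 and 5 each carried RNA pooled from a saline-treated and an untreated gland of 1 cow, whereas neighboring 4 was a single untreated gland. Controls 1, 2 and 4 were pools of 2 glands and the sample sheet marks controls 3 and 5 as a single gland. Each array was thus a separate animal, and p-values measured the spread between animals.

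The study's methods set aside neighboring 5, as a biological outlier whose profile grouped with the controls, and control 3, as a technical outlier. The fit described here therefore used the other 8 arrays, 4 against 4, and the result over all 10 arrays is given beside it. Choosing arrays by their profile in this way narrows the spread within groups. Leaving out neighboring 5, which grouped with the controls, also tends to widen the difference between groups. The median difference over the 32 carrier probe sets was 0.29 on 8 arrays, 0.23 with neighboring 5 put back and 0.19 on all 10. Values are log2 intensities after robust multi-array average (RMA) normalization. Array medians lay between 6.25 and 6.27, and the correlation between any pair of arrays over all probe sets was 0.971 to 0.992. The number of arrays limits the precision. Readings of different probe sets are not comparable as levels.

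Of the 32 probe sets, 13 (11 genes) were higher and 3 (3 genes) were lower in neighboring than in control glands at an adjusted p under 0.05 (limma, Benjamini-Hochberg over 14410 probe sets), and 16 did not pass. Over all probe sets tested the same rule called 29.7%, with 17.7% higher and 12% lower. Among the carriers 50% were called, 40.6% higher and 9.38% lower. The median difference over the 32 was 0.29 log2 units, against 0.03 over all probe sets tested, with a median standard error (SE) of 0.12. Only SLC25A21 passed an adjusted p under 0.01 together with a change over 2-fold, a rule that called 2.76% of all probe sets tested, and its mean over neighboring 1 to 4 lay under the filter level, which it passed through its control readings. On all 10 arrays 3 probe sets were higher and 2 were lower, or 15.6% of the 32, against 12.5% of all probe sets (7.16% higher and 5.37% lower), and none passed the stricter rule, which called 0.104%. Calls were kept in every fit without 1 array for SLC25A21, UCP2, SLC25A3, SLC25A28, SLC25A29, SLC25A38, SLC25A51, both probe sets of SLC25A5 and 1 of SLC25A33. Readings of the neighboring and control arrays did not overlap for 14 of the 32 probe sets on 8 arrays (31.7% of all probe sets) and for 2 on 10 arrays (7.28% of all).

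**Figure D1:**
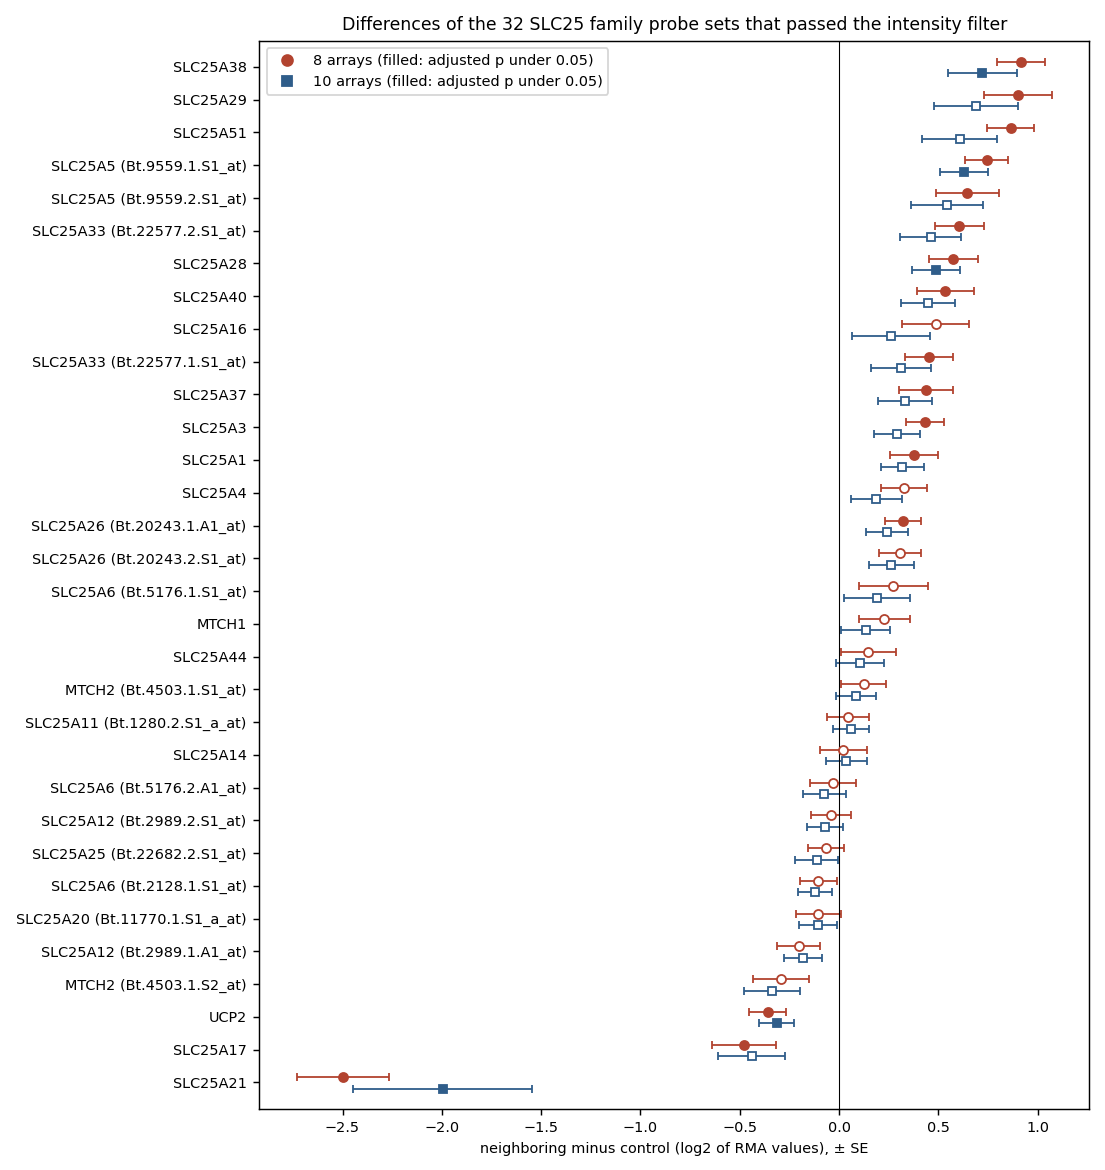
Difference between neighboring and control glands (log2 of RMA values, horizontal axis, ± SE) for each of the 32 carrier probe sets that passed the intensity filter. Circles stand for the 8-array fit and squares for all 10 arrays, filled where the adjusted p was under 0.05. SLC25A21 stood at -2.50 on 8 arrays, with the other 31 between -0.48 and 0.92.

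Cell type markers moved between the groups as well, and in bulk tissue fewer cells of a type and less RNA per cell cannot be told apart. The milk protein genes CSN2, LALBA and the luminal transcription factor ELF5 were bright in both groups, with differences of 0.09, -0.09 and -0.11 that did not pass. The CSN2 reading on neighboring 5, at 14.86, was the highest of all values. Whether readings near that top can still show a change was not tested, so the milk protein differences say little. Of 7 luminal epithelial markers KRT19 and EPCAM were higher, EPCAM also on all 10 arrays, and 5 did not pass. The median difference over the list was 0.11. The list mean was 11.66 to 11.96 in the 4 neighboring samples, against 11.31 to 11.49 in the 4 controls. Neighboring 5 stood at 11.50 and control 3 at 11.62, so the list means overlapped on all 10 arrays. Myoepithelial and smooth muscle markers were lower for 4 of 6 (list mean 9.15 to 9.73, against 9.91 to 10.53 in controls), and fibroblast markers were lower for 3 and higher for 1 of 6 (8.81 to 9.58, against 9.72 to 10.14). The adipocyte list had 1 of 2 lower (FABP4), the macrophage list 2 of 4 and the T and NK cell list 3 of 5. Over all marker lists 3 of 34 genes were higher and 13 lower on 8 arrays, and 2 were higher and 7 lower on all 10. Of all probe sets tested 17.7% were higher and 12% lower on 8 arrays, and 7.16% and 5.37% on all 10. On all 10, KRT19, ACTA2, TAGLN, FABP4, AIF1 and the T and NK cell markers were no longer called. The fibroblast marker COL1A2 was called lower there and not on 8 arrays. None of the 4 neutrophil markers on the array passed the intensity filter. The part of these shifts in the carrier results was not tested.

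Carriers of adenine nucleotides, cofactors and phosphate formed the largest group, with 13 probe sets for 9 genes. Of these 6 probe sets were higher, 1 was lower and 6 did not pass, and 1 was higher on all 10 arrays. The shares to set beside this group and those below are 17.7% higher and 12% lower of all probe sets on 8 arrays. On all 10 they are 7.16% and 5.37%. SLC25A5, an ADP/ATP carrier that exports ATP from the matrix, had 2 probe sets and both were higher. Probe set Bt.9559.1.S1_at read 10.69, 10.98, 10.78 and 11.06 on neighboring 1 to 4 and 10.41 on neighboring 5, against 10.02, 10.21, 10.08 and 10.23 on controls 1, 2, 4 and 5 and 10.24 on control 3. All 5 neighboring arrays lay above all 5 controls. The difference was 0.74 ± 0.11 (SE, 1.67-fold, limma adjusted p = 0.00116), and 0.63 ± 0.12 on all 10 arrays (adjusted p = 0.0223). Probe set Bt.9559.2.S1_at averaged 10.88 ± 0.21 in neighboring and 10.23 ± 0.29 in control samples (SD, n = 4 each), with neighboring 5 at 10.17 among the controls (9.81 to 10.49). Its difference was 0.65 ± 0.16 (adjusted p = 0.0129), or 0.54 ± 0.18 on all 10 arrays, which did not pass (adjusted p = 0.0646).

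The other ADP/ATP carriers on the array did not pass. SLC25A4, the muscle and heart type, read 11.23, 11.49, 11.24 and 11.19 on neighboring 1 to 4 and 10.90 on neighboring 5, against 11.10, 11.04, 10.70 and 11.01 on controls 1, 2, 4 and 5 and 11.27 on control 3. The groups of 4 did not overlap, but the difference was 0.33 ± 0.12 with an adjusted p of 0.0578, and neighboring 5 and control 3 overlapped the opposite group. SLC25A6 had 3 probe sets with differences of 0.27 ± 0.18, -0.03 ± 0.12 and -0.10 ± 0.09. Taken within each array, Bt.9559.1.S1_at of SLC25A5 changed by 0.42 log2 units more than SLC25A4 on 8 arrays (two-sided exact permutation p = 0.0286, the smallest 4 against 4 can give, adjusted p = 0.171 over 6 pairs) and by 0.44 on 10 arrays (exact permutation p = 0.00794, adjusted p = 0.0476). The other SLC25A5 probe set changed by 0.32 more than SLC25A4 on 8 arrays (exact permutation p = 0.171) and by 0.36 on 10 (exact permutation p = 0.111). Against the brightest SLC25A6 probe set, those of SLC25A5 changed by 0.47 and 0.37 more on 8 arrays (exact permutation p = 0.0857 and 0.229) and by 0.44 and 0.35 on 10 (exact permutation p = 0.0794 and 0.246). SLC25A4 differed from SLC25A6 by 0.05 on 8 arrays (exact permutation p = 0.8). The pairs were chosen after the values were seen, a choice that the adjustment over 6 pairs does not cover. Of the 6 only the first passed after adjustment, on 10 arrays. Its exact permutation p of 0.00794 there is the smallest 5 against 5 can give. ADP/ATP carriers are close in sequence, and whether their probes bind each other's transcripts was not tested.

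SLC25A51, the carrier that brings NAD+ into the matrix, read 8.19, 7.69, 7.86 and 7.78 on neighboring 1 to 4, against 7.05, 7.02, 6.89 and 7.11 on controls 1, 2, 4 and 5. Neighboring 5 read 6.99 and control 3 read 7.41, so the groups were apart on 8 arrays and overlapped on 10. The difference was 0.86 ± 0.12 (1.82-fold, adjusted p = 0.000887), and 0.61 ± 0.19 on all 10 arrays (adjusted p = 0.0553). SLC25A33, a pyrimidine nucleotide carrier linked to mitochondrial DNA and RNA synthesis, was higher on both of its probe sets. Bt.22577.2.S1_at averaged 7.71 ± 0.16 in neighboring and 7.11 ± 0.19 in control samples (SD, n = 4 each), a difference of 0.60 ± 0.12 (adjusted p = 0.00577). Bt.22577.1.S1_at averaged 8.28 ± 0.18 in neighboring and 7.83 ± 0.16 in control samples, a difference of 0.45 ± 0.12 (adjusted p = 0.0198). On both probe sets neighboring 5 fell inside or below the control readings, at 7.05 and 7.60, and the 10-array differences of 0.46 and 0.31 did not pass (adjusted p = 0.064 and 0.174). The call on Bt.22577.1.S1_at was lost without neighboring 3, control 2 or control 4, with an adjusted p of up to 0.0565.

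SLC25A3, which takes phosphate into the matrix for ATP synthesis, read 11.61, 11.61, 11.52 and 11.43 on neighboring 1 to 4 and 11.17 on neighboring 5. Controls 1, 2, 4 and 5 read 11.07, 11.27, 11.00 and 11.08, and control 3 read 11.44. The 4 neighboring arrays all lay above those 4 controls, by a mean of 0.43 ± 0.10 (1.35-fold, adjusted p = 0.00844). On 10 arrays the difference was 0.29 ± 0.12 and did not pass (adjusted p = 0.107).

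The lower member of this group was SLC25A17, which lies in the peroxisome and carries CoA, FAD and NAD. It read 9.10, 8.51, 8.33 and 8.40 on neighboring 1 to 4 and 9.09 on neighboring 5, against 9.05, 8.91, 9.08 and 9.21 on controls 1, 2, 4 and 5 and 9.38 on control 3. Neighboring 1 lay among the controls and the groups overlapped. The difference was -0.48 ± 0.16 (adjusted p = 0.0471) and -0.44 ± 0.17 on all 10 arrays (adjusted p = 0.0957), and the call was lost without neighboring 2, 3 or 4 or without any of controls 1, 2, 4 and 5, with an adjusted p of up to 0.126. Of the rest, SLC25A16, linked to CoA in the matrix, differed by 0.49 ± 0.17 (adjusted p = 0.0514), and probe set Bt.22682.2.S1_at of SLC25A25, an ATP-Mg/phosphate carrier, by -0.07 ± 0.09.

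Among the di- and tricarboxylate carriers 1 of 3 probe sets was higher, 1 was lower and 1 did not pass. SLC25A21 exchanges 2-oxoadipate, an intermediate of lysine and tryptophan breakdown, for 2-oxoglutarate. It read 4.84, 5.89, 5.42 and 5.26 on neighboring 1 to 4 and 7.82 on neighboring 5, against 8.42, 7.66, 7.63 and 7.70 on controls 1, 2, 4 and 5 and 7.81 on control 3. Neighboring 1 to 4 all lay far below every control, while neighboring 5 read above 4 of the 5 controls. Readings on neighboring 1, 3 and 4, and the mean of 5.35 over neighboring 1 to 4, were under the filter level of 5.71 and so in the range of dim probe sets. As measured the difference was -2.50 ± 0.23 (adjusted p = 0.000154) and -2.00 ± 0.45 on all 10 arrays (adjusted p = 0.0266), and the call was kept in each of the 8 fits without 1 array. With the dim readings raised to the filter level, a setting chosen after the data were seen, the 8-array difference was -2.10. SLC25A21 was then 4.29-fold lower over neighboring 1 to 4, with neighboring 5 left out. The filter level is set by a share of probe sets and is not a limit of detection, so this fold is no firm minimum. Raising gave 3 of the 4 neighboring readings the same value and narrowed their spread, so an SE and p are not given for it.

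SLC25A1, the citrate carrier that supplies the cytosol with carbon for fatty acid synthesis, was higher. It read 9.32, 9.50, 9.29 and 9.47 on neighboring 1 to 4 and 9.28 on neighboring 5, against 8.86, 9.30, 8.84 and 9.06 on controls 1, 2, 4 and 5 and 9.19 on control 3. Control 2 lay within the neighboring readings. The difference was 0.38 ± 0.12 (1.30-fold, adjusted p = 0.0389), or 0.32 ± 0.11 on 10 arrays (adjusted p = 0.0689), and the call was lost without neighboring 2, 3 or 4 or control 1, 4 or 5 (adjusted p up to 0.104). Probe set Bt.1280.2.S1_a_at of SLC25A11, the oxoglutarate/malate carrier of the malate-aspartate shuttle, differed by 0.04 ± 0.11.

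Carriers of amino acids, S-adenosylmethionine, glutathione and carnitine gave 9 probe sets for 7 genes, of which 4 were higher, none was lower and 5 did not pass. SLC25A38, which imports the glycine that starts heme synthesis, read 9.31, 8.88, 9.15 and 9.39 on neighboring 1 to 4 and 8.34 on neighboring 5, against 8.26, 8.20, 8.22 and 8.38 on controls 1, 2, 4 and 5 and 8.41 on control 3. Neighboring 1 to 4 all lay above every control, and neighboring 5 lay among them. The difference was 0.92 ± 0.12 (1.89-fold, adjusted p = 0.000703), the most positive of the family, and 0.72 ± 0.17 on all 10 arrays (adjusted p = 0.0298). SLC25A29, a carrier of arginine and other basic amino acids, read 10.43, 9.53, 9.91 and 10.01 on neighboring 1 to 4 and 9.04 on neighboring 5, against 8.87, 9.04, 9.13 and 9.25 on controls 1, 2, 4 and 5 and 9.19 on control 3. The arrays split as for SLC25A38. SLC25A29 differed by 0.90 ± 0.17 (1.86-fold, adjusted p = 0.00414), and by 0.69 ± 0.21 on all 10 arrays, which did not pass (adjusted p = 0.052).

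SLC25A40, linked to glutathione import, averaged 6.81 ± 0.23 in neighboring and 6.27 ± 0.22 in control samples (SD, n = 4 each). Neighboring 2, at 6.54, lay just under control 4, at 6.56, so the groups met. The difference was 0.53 ± 0.14 (adjusted p = 0.0198), 0.45 ± 0.14 on 10 arrays (adjusted p = 0.0503), and the call was lost without control 1 or control 2 (adjusted p = 0.0536 and 0.0529). SLC25A26, the S-adenosylmethionine carrier that serves methylation inside mitochondria, had a called probe set, Bt.20243.1.A1_at, at 8.10 ± 0.11 in neighboring and 7.78 ± 0.05 in control samples. Its difference was 0.32 ± 0.09 (adjusted p = 0.0256), or 0.24 ± 0.10 on 10 arrays (adjusted p = 0.131), and it was lost without neighboring 2 or 3 or control 2, 4 or 5 (adjusted p up to 0.0753). The second SLC25A26 probe set differed by 0.30 ± 0.11 (adjusted p = 0.0512) and the third was dim.

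Both probe sets of SLC25A12, an aspartate-glutamate carrier, failed to pass, at -0.04 ± 0.10 and -0.20 ± 0.11. SLC25A20, the carnitine/acylcarnitine carrier of fatty acid oxidation, differed by -0.10 ± 0.11 on Bt.11770.1.S1_a_at, and SLC25A44, a branched-chain amino acid carrier, by 0.15 ± 0.14.

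Both mitoferrins, which bring iron into the matrix for heme and iron-sulfur clusters, were higher. SLC25A28, the form found in most tissues, read 9.27, 9.18, 9.40 and 9.21 on neighboring 1 to 4 and 8.97 on neighboring 5, against 8.94, 8.83, 8.44 and 8.54 on controls 1, 2, 4 and 5 and 8.83 on control 3. All 5 neighboring arrays lay above all 5 controls, though neighboring 5 and control 1 were close. The difference was 0.58 ± 0.13 (1.49-fold, adjusted p = 0.00777), and 0.49 ± 0.12 on all 10 arrays (adjusted p = 0.0309). SLC25A37, the form known from red cell precursors, read 9.32, 8.83, 8.89 and 8.75 on neighboring 1 to 4 and 8.54 on neighboring 5, against 8.46, 8.37, 8.51 and 8.70 on controls 1, 2, 4 and 5 and 8.63 on control 3. Neighboring 1 stood above the other arrays of its group, and neighboring 5 lay among the controls. SLC25A37 differed by 0.44 ± 0.14 (1.36-fold, adjusted p = 0.0347) and by 0.33 ± 0.14 on 10 arrays (adjusted p = 0.112), and was lost without neighboring 3 or control 1, 2 or 4 (adjusted p up to 0.0857). Within arrays SLC25A28 changed by 0.14 log2 units more than SLC25A37, which did not pass (two-sided exact permutation p = 0.571).

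UCP2, an uncoupling protein relative that exchanges small dicarboxylates for phosphate, was lower. It read 6.90, 6.99, 6.91 and 7.04 on neighboring 1 to 4 and 7.21 on neighboring 5, against 7.36, 7.33, 7.17 and 7.41 on controls 1, 2, 4 and 5 and 7.35 on control 3. Neighboring 1 to 4 lay below every control, and neighboring 5 lay just above control 4. The difference was -0.36 ± 0.09 (0.78-fold, adjusted p = 0.0167) and -0.32 ± 0.09 on all 10 arrays (adjusted p = 0.0432). SLC25A14, a relative of the uncoupling proteins, differed by 0.02 ± 0.12.

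MTCH1 and MTCH2 are family members of the outer mitochondrial membrane, where MTCH2 inserts proteins. None of their 3 probe sets passed. MTCH1 differed by 0.23 ± 0.13, and the 2 probe sets of MTCH2 differed in sign, at 0.12 ± 0.11 and -0.29 ± 0.14 (adjusted p = 0.142 for the second).

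The 13 dim probe sets belonged to UCP1, UCP3, SLC25A15, SLC25A30, SLC25A34, SLC25A42 and SLC25A48, and to further probe sets of SLC25A11, SLC25A12, SLC25A20, SLC25A25 and SLC25A26. None passed when the filter was left out, a fit that called 20.3% of all probe sets, with differences between -0.27 ± 0.13 for UCP1, the heat-producing form of brown fat, and 0.34 ± 0.26 for SLC25A15, the ornithine carrier of the urea cycle. SLC25A30, an uncoupling protein relative, differed by -0.19 ± 0.09 (adjusted p = 0.174) with groups that did not overlap on 8 or on 10 arrays. Its means of 2.18 in neighboring and 2.36 in control samples (n = 4 each) lay far under the filter level of 5.71. The share of all unfiltered probe sets without overlap was not counted, so this says little.

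**Figure D2:**
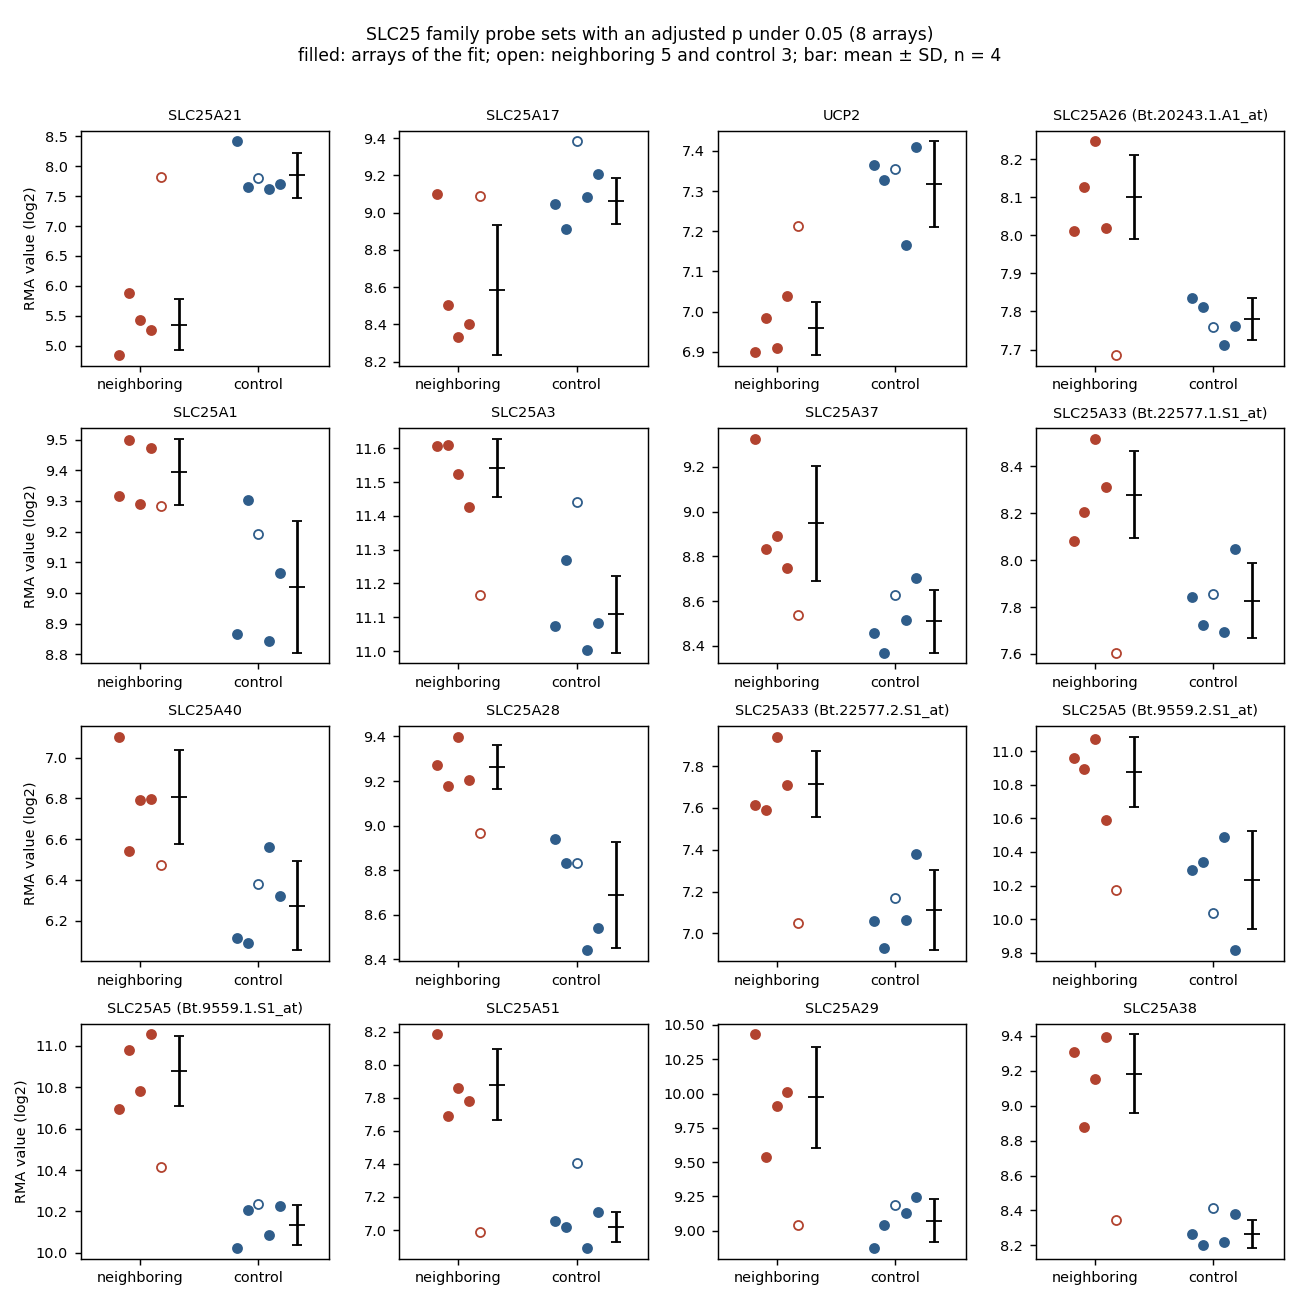
RMA value (log2, vertical axes that differ between panels and do not start at 0) of the 16 called probe sets on every array, neighboring left of control. Filled points are the 8 arrays of the fit, open points are neighboring 5 and control 3, and bars give the mean ± SD of 4 samples. For SLC25A21 neighboring 5 lies at 7.82 among the controls and away from the other 4 neighboring samples, and for SLC25A28 all 5 neighboring samples lie above the controls.

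The called probe sets were compared array by array, by placing each reading between the control mean (0) and the neighboring mean (1) of the 8-array fit. Neighboring 5 had a median position of 0.04 over the 16 probe sets and lay within the range of the 4 controls for 12 of them. It passed the midpoint for SLC25A1 only, at 0.71. The 4 arrays used in the fit had median positions of 1.13 for neighboring 1, 0.85 for neighboring 2, 0.97 for neighboring 3 and 0.99 for neighboring 4. Neighboring 1 and neighboring 3 were each the most extreme array for 6 probe sets, and neighboring 2 and neighboring 4 for 2 each. Control 3 had a median position of 0.13 and lay within the range of the other controls for 11 of 16. These positions describe the readings that made the calls and test nothing.

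**Figure D3:**
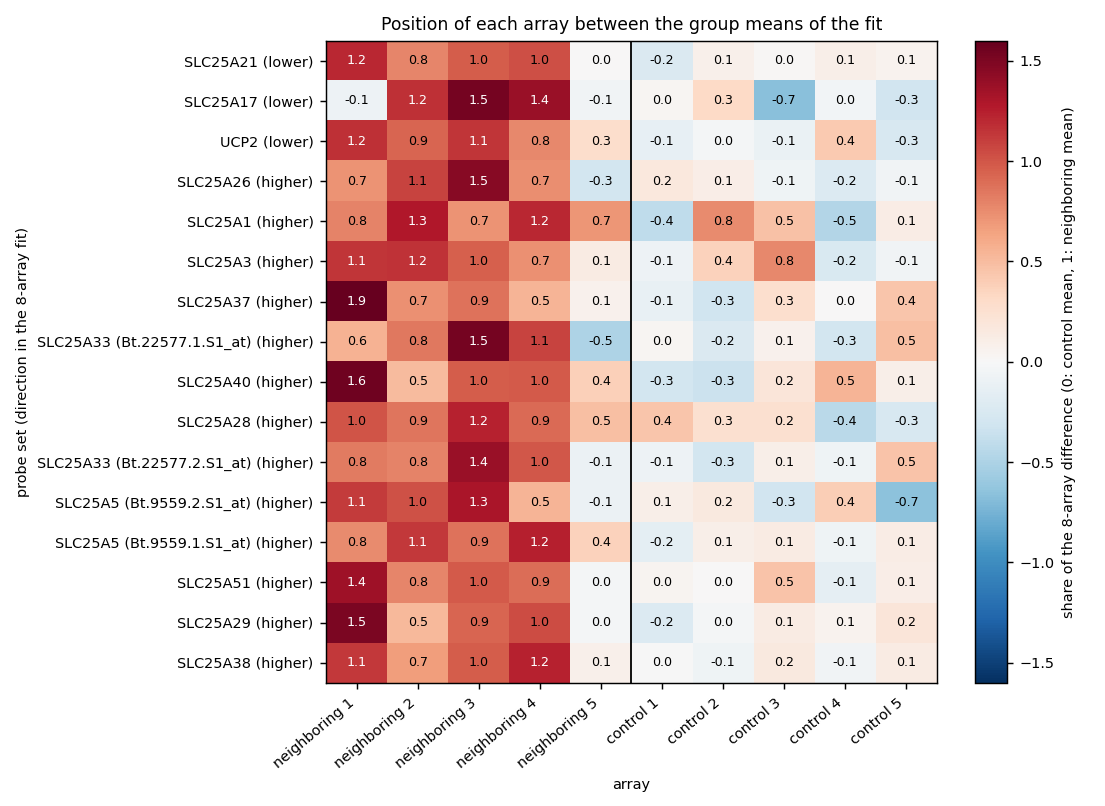
Position of each array (columns) between the control mean (0) and the neighboring mean (1) of the 8-array fit, for the 16 called probe sets (rows, with the direction of the call). Neighboring 5 stays near 0 in most rows, with SLC25A1 at 0.71, while neighboring 1 is near 0 only for SLC25A17.

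Hybridization control transcripts, which are added in fixed amounts and carry no cow RNA, averaged lower on the neighboring arrays. The difference in means was -0.37 on 8 arrays and -0.29 on all 10, with ranges that overlapped in both. The mean over 18 such probe sets was 10.20 to 10.43 on the 4 neighboring arrays, against 10.42 to 10.84 on the 4 controls (two-sided exact permutation p = 0.0571), and 10.20 to 10.65 against 10.42 to 10.84 on all 10 (exact permutation p = 0.0397). With this mean as a covariate 2 of the 16 calls were kept, SLC25A21 at -2.01 (adjusted p = 0.0327) and Bt.9559.1.S1_at of SLC25A5 at 0.89 (adjusted p = 0.0491). No sign turned. The covariate raised the SE of every called probe set, by 1.43 to 1.82 times, with a median of 0.22 against 0.12 without it. The difference grew in size for 10 of the 16, such as SLC25A38 (0.98), SLC25A51 (0.87) and SLC25A28 (0.73), and shrank for 6. As a share of its size it shrank most for SLC25A40 (0.19), Bt.9559.2.S1_at of SLC25A5 (0.21) and UCP2 (-0.15). In log2 units it shrank most for SLC25A21, from -2.50 to -2.01. The median over the 32 probe sets was 0.27. Over all probe sets 1.74% were called in that fit, in either direction. The part of the hybridization difference in the results was not tested further.

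Genes around the carriers were read from lists of 83 in all, which covered enzymes that make or use their substrates, other mitochondrial channels, protein import and mitochondrial content. Of these 64 were on the array and 55 passed the filter. On 8 arrays 19 of the 55 were higher and 7 were lower, where 17.7% and 12% of all probe sets were called, and 29 did not pass, with a median difference of 0.16. On all 10 arrays 11 were higher and 5 lower, where 7.16% and 5.37% of all probe sets were called. Around the oxoadipate carrier, ALDH7A1, which acts early in lysine breakdown, was higher by 0.70 ± 0.15 (adjusted p = 0.00817) and AADAT, which makes 2-oxoadipate, by 0.55 ± 0.11 (adjusted p = 0.00651). DHTKD1, a subunit of the complex that oxidizes 2-oxoadipate in the matrix, fell by 0.63 ± 0.13 (adjusted p = 0.00511). GCDH, the next step, differed by 0.05. On all 10 arrays ALDH7A1 and DHTKD1 were still called, and AADAT was not (0.33, adjusted p = 0.169).

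Around the citrate carrier 3 of 7 genes were lower and none was higher. IDH1, which makes NADPH in the cytosol, fell by 1.44 ± 0.14, ACO1, the cytosolic aconitase, by 0.79 ± 0.17, and IDH2, its mitochondrial NADPH-forming relative, by 0.54 ± 0.13 (adjusted p = 0.00019, 0.00683 and 0.0114), and all 3 were called on 10 arrays. ACLY, which splits exported citrate, differed by 0.30 ± 0.11 (adjusted p = 0.066). Around the basic amino acid carriers, ODC1, the first enzyme of polyamine synthesis, was higher by 0.96 (adjusted p = 0.000907), ASL of the urea cycle by 0.74, and OAT, which breaks ornithine down in the matrix, was lower with a difference of -0.39 (adjusted p = 0.0341). Of these only ASL was called on all 10 arrays, where ODC1 differed by 0.60 (adjusted p = 0.108) and OAT by -0.38 (adjusted p = 0.0755).

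Beside the glycine carrier and the mitoferrins none of 4 users of imported glycine or iron passed. ALAS1, which joins glycine to succinyl-CoA, differed by -0.19 ± 0.10, FECH, which inserts iron into heme, by 0.15, and the iron-sulfur scaffold ISCU by 0.23. None of 3 malate-aspartate shuttle genes and none of 4 carnitine genes passed. Folate enzymes, which link glycine and serine to 1-carbon units, were higher for 4 of 6, and all 4 were also called on 10 arrays. MTHFD2 stood at 2.61 ± 0.16, MTHFD1L at 1.06 and ALDH1L2 at 0.59 (adjusted p = 1.92e-05, 0.00103 and 0.00887). SHMT2 and MTHFD1 differed by 0.09 and -0.02 and did not pass.

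Of 9 genes of the mitochondrial protein import machinery 5 were higher and none was lower. TIMM9, a small chaperone that escorts carriers between the membranes, was higher by 0.61, TIMM23, the core of the presequence translocase, by 0.53 and TOMM70, the outer membrane receptor for carriers, by 0.53. TIMM22, the translocase that inserts carriers into the inner membrane, differed by -0.06 (adjusted p = 0.689). None of the 5 was called on all 10 arrays. Of 8 other mitochondrial channels and carriers, VDAC1, the main outer membrane pore, was higher by 0.43 and SFXN4, a sideroflexin, by 0.40, and MPC2, a subunit of the pyruvate carrier, was lower with a difference of -0.64. Only SFXN4 was called on all 10 arrays, where VDAC1 differed by 0.23 (adjusted p = 0.3) and MPC2 by -0.31 (adjusted p = 0.343). Among 6 genes listed for mitochondrial content and biogenesis 4 were higher. SOD2, the matrix superoxide dismutase, stood at 1.76, the chaperonin HSPD1 at 1.58 and the prohibitin PHB1 at 1.25. PPARGC1A, a coactivator that drives mitochondrial biogenesis, was the 1 lower gene, with a difference of -0.65 ± 0.10, and all 5 were called on 10 arrays. NRF1 of this list (-0.12) and CS of the citrate list (0.05) did not pass. The paper counts SOD2 among signs of oxidative stress, and mitochondrial content itself was not measured.

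**Figure D4:**
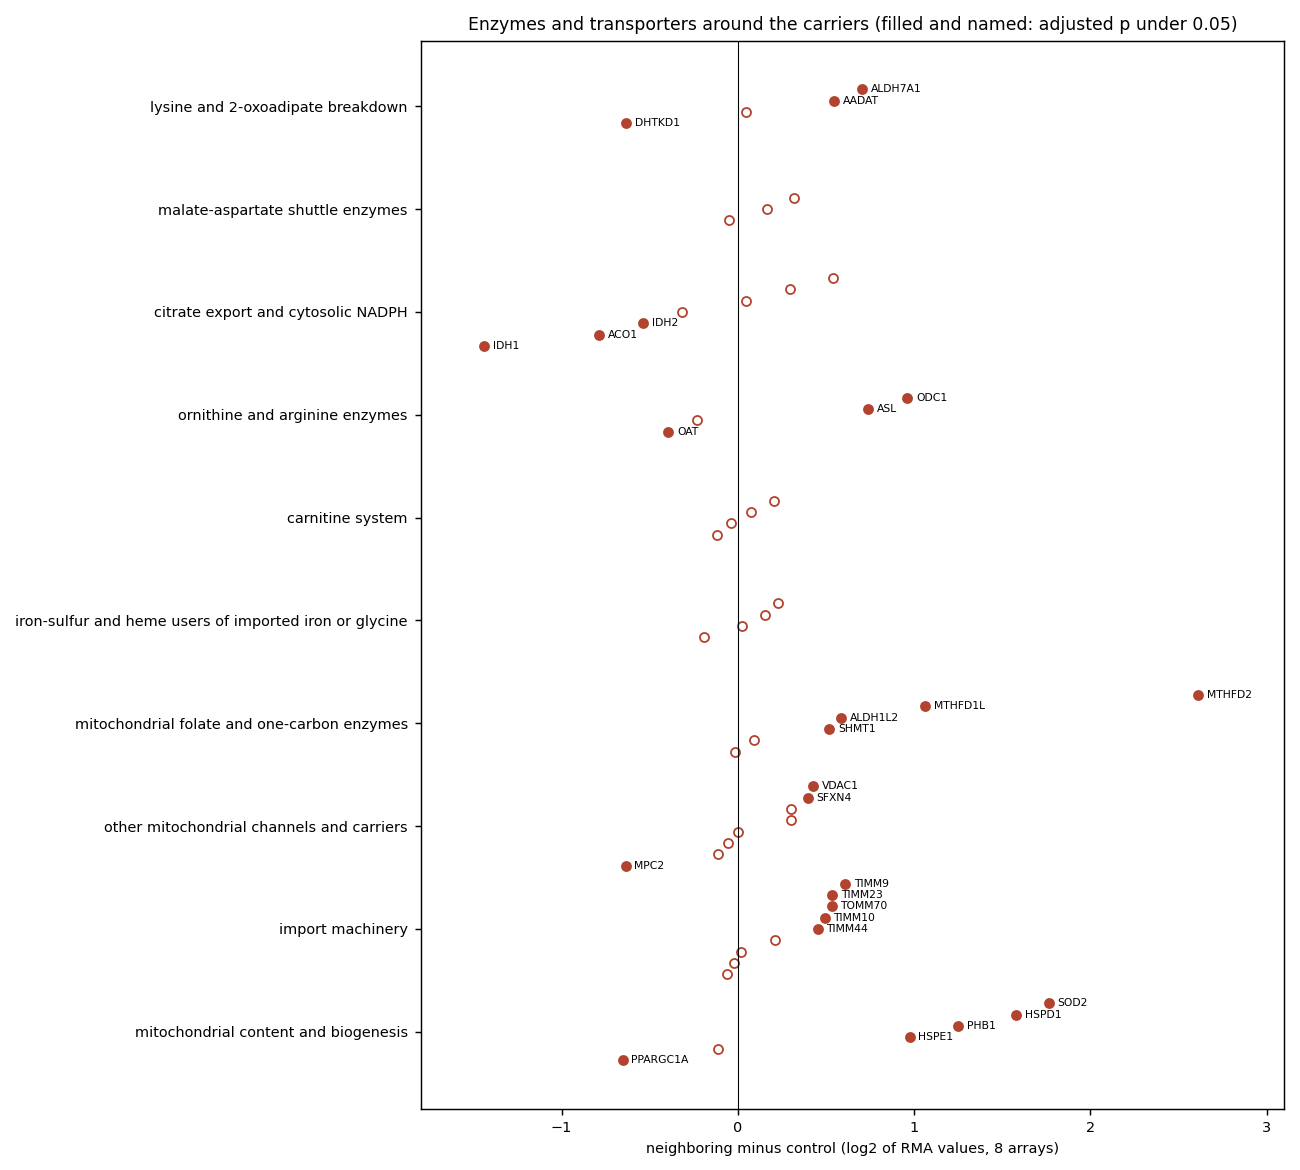
Difference between neighboring and control glands (log2 of RMA values, 8 arrays, horizontal axis) of the 55 listed partner genes that passed the intensity filter, by list. Filled and named points had an adjusted p under 0.05, such as MTHFD2 at 2.61 and IDH1 at -1.44, and no point is filled in the malate-aspartate, carnitine and iron-sulfur and heme rows.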

How the data were processed

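The deposited values were log2 intensities that the authors had background-corrected, quantile-normalized and summarized per probe set by RMA; scanner files were not used here. Probe sets were named from the platform annotation: 13292 carried 1 symbol, 86 several and 10638 none, and those with several were not named. The 112 array controls were left out. Groups were taken from the sample titles, since a source label of the healthy samples repeats that of the neighboring ones. Neighboring minus control was fitted with limma 3.58.1 in R 4.3.3 (lmFit, eBayes, Benjamini-Hochberg) on the 8 arrays kept by the study's methods, after dropping the lowest 40% of probe sets by mean (under 5.71), with all 10 arrays beside it. The fit was tested on simulated data. Named carriers were all those with an adjusted p under 0.05 in either fit, and partner genes up to 3 a list with the largest difference among those that passed. PPARGC1A and a few genes that did not pass were named beside them, chosen after their values were seen. Each partner or marker gene was read on its brightest probe set. Members and lists were chosen with earlier results of these data known. Alternatives were each array put back or left out, array weights, other filters, centering, cyclic loess, trend and robust fits, the hybridization controls as a covariate, stricter thresholds and a replicate block.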

Additional observations from a re-analysis of the deposited data

Results flagged for a closer look

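The 16 called probe sets gave 32 groups of 5 arrays, and in 1 of them a reading stood apart. SLC25A21 read 8.42 on control 1, against 7.63 to 7.81 on the other 4 controls, a gap of 0.77 of the range where 0.71 is the limit. Chance marks about 1 in 20 such groups.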

How the results depend on the processing

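No call reversed its sign under any alternative. Of the alternatives, shares over all probe sets were taken only for all 10 arrays, no filter and the covariate. Counts under the others cannot be set against such a share. The count of higher carrier probe sets (13) became 3 on all 10 arrays, 3 with neighboring 5 put back, 1 with the hybridization covariate, 5 with the replicate block, 7 at an adjusted p under 0.01, and 9 to 13 without 1 array. The lower count (3) became 1 with neighboring 5 put back, with the covariate, with the replicate block and at 0.01, and 2 to 4 without 1 array. The count over 2-fold (1) was 0 on all 10 arrays, with neighboring 5 put back, with the covariate and with the replicate block, 6 at 1.5-fold, and 1 to 3 without 1 array, with 3 reached without neighboring 2. Partner calls (26) became 16, 12, 5 and 16 on all 10 arrays, with neighboring 5 put back, with the covariate and with the replicate block, and 22 to 27 without 1 array. The median difference (0.29) was 0.19 on 10 arrays, 0.23 with neighboring 5 put back, 0.22 with control 3 put back, 0.10 without a filter, 0.15 with the lowest 20% dropped, 0.23 with cyclic loess, and 0.21 to 0.31 without 1 array. Replicate numbers name different cows, and same-numbered arrays deviated with r of -0.03, -0.03 and -0.05 on 8 arrays and of -0.19, 0.07, -0.17, 0.02 and 0.17 on 10, so they were not taken as pairs. Of the 16 calls 16 were kept with control 3 put back, all 10 arrays under array weights, centering, dim readings raised to the filter level (chosen after the data were seen) and the trend and robust fits, 15 without a filter or with the lowest 20% dropped (SLC25A17 lost), and 13 with cyclic loess (SLC25A1, SLC25A26 and SLC25A37 lost). Raising dim readings narrowed the spread of SLC25A21, so its kept call under that setting is no support. Except where the alternative itself drops arrays or tightens a threshold, the cause was not tested.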
